A study of Mus musculus with 6 samples.

Results

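The genes of oxidative phosphorylation were followed in RNA of mouse hepatic tissue, in the nucleus and in the mitochondrial genome. Rows of the deposited table were taken as members when they were annotated as protein-coding and their symbol named a subunit of complexes I to V. Those symbols begin with mt-Nd, mt-Co, mt-Cytb or mt-Atp in the mitochondrial genome, and with Nduf followed by a, b, c, s or v and a digit, Sdha to Sdhd, Uqcr, Cox4 to Cox8 or Atp5 in the nucleus. The pattern met 97 rows, of which 2 assembly factors (Atp5s and Cox7a2l) and 1 pseudogene (Atp5l-ps1) were left out. This gave 94 members of 25690 rows, 81 in the nucleus and 13 in the mitochondrial genome, and the symbol rule uses no expression value. Cox4i1 was not analysed here. Cyc1, Usmg5, Atpif1 and Ndufab1 lie outside the symbol rule, so the members are not every subunit of the complexes.

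Oxidative phosphorylation is the chain of protein complexes in the inner mitochondrial membrane that passes electrons from NADH and succinate to oxygen, pumps protons and uses their return flow to make ATP. Complexes I, III, IV and V are mosaics of subunits from both genomes, while complex II is encoded in the nucleus alone. The liver is rich in mitochondria, and its fatty acid oxidation, urea synthesis and gluconeogenesis draw on the ATP and the electron acceptors that this chain supplies.

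The study compared 3 libraries of wild type control mice with 3 libraries of mice labelled hepatic FTO knockout. FTO is a demethylase whose substrate is N6-methyladenosine in RNA. The libraries are called wild type 1 to 3 and knockout 1 to 3, in the order of the samples, and the numbers pair nothing. The promoter or Cre line behind the knockout and the age of the mice are not given in the sources used here. The labels do not say that each library came from a separate animal, so the spread behind the p-values may be only technical. Values are FPKM, which divide the fragments of a gene by its transcript length and by the mapped fragments of the library.

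Fto itself stood at 6.67, 6.02 and 6.40 FPKM in wild type 1, 2 and 3 and at 1.79, 3.83 and 2.66 FPKM in knockout 1, 2 and 3. All 3 knockout libraries lay below all 3 wild type libraries, and Fto fell by 1.004 on the log2(FPKM + 1) scale (adjusted p = 0.0386 by limma with Benjamini-Hochberg adjustment). The call was lost when wild type 1, wild type 2, knockout 1 or knockout 3 was left out (adjusted p by limma 0.0804, 0.113, 0.0662 and 0.146), with scaling to the sum outside the mitochondrial genome (0.0635) and with no filter on low values (0.0975). An approximate depth of 34100000 to 42500000 fragments per library was read from low values, within a range set beforehand. Hepatocyte markers dominated: the 6 listed hepatocyte genes other than Alb summed to 17461 to 20196 FPKM in wild type and 22327 to 22846 FPKM in knockout, while Alb was listed at 0 in wild type 1 and knockout 3. The markers of T and B lymphocytes summed to at most 2.15 FPKM and those of skeletal and cardiac muscle to at most 0.187 FPKM in any library. Wild type 3 stood apart from the other 5 libraries for the members in the nucleus, as the values below show, so counts, medians and the log2 changes that it moved most are also given without it.

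Some genes of the mitochondrial genome share bases with another gene, and their values rest on how shared fragments were counted. The 13 protein genes of the mitochondrial genome are packed on a small circle, and their coordinates are those of GENCODE M21 on GRCm38. mt-Atp8, which encodes the smallest mitochondrial subunit of ATP synthase, lies at chrM:7766-7969 on the plus strand and is 204 bases long. Its last 43 bases, in capitals, are also the first 43 bases of mt-Atp6. mt-Nd4l, which encodes a small membrane subunit of complex I, lies at chrM:9877-10173 on the plus strand, and its last 7 bases, in capitals, are the first of mt-Nd4. Both are shown because fragments from the capital stretches fit a pair of genes.
mt-Atp8: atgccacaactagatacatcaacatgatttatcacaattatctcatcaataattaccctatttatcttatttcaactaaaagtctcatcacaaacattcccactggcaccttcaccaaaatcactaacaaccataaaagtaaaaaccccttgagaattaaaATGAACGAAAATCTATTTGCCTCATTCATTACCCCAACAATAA
mt-Nd4l: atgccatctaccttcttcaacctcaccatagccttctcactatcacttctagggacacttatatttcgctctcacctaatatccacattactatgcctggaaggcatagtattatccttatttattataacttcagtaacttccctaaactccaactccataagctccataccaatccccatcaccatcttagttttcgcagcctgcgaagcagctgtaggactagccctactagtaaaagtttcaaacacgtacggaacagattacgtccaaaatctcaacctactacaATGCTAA

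The mt-Nd4l sequence also has a copy in the nucleus. Gm10222, annotated as a pseudogene at chr1:24612407-24612700, is 294 bases long and identical to mt-Nd4l at all 294 aligned bases. Its deposited FPKM differed from that of mt-Nd4l by at most 0.0364% in any library. The value of mt-Nd4l is therefore uncertain, because the labels do not say how fragments were divided between the pair. Nuclear copies of the other mitochondrial genes were not looked for. Their values, the mitochondrial sums and the order along the heavy strand may therefore carry the same uncertainty.

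The promoters of the nuclear members are known for binding sites of NRF1, GABPA (NRF2) and YY1. RefSeq windows on GRCm38.p6, from 250 bases before to 50 bases after a start, were matched for 65 of the 81 nuclear members, with 70 windows. The NRF1 letters CGCATGCG, which read the same on both strands, were in 9 of the 70 windows (12.9%) and in 615 of all 32851 windows (1.87%). The GABPA letters CCGGAAGT, on either strand, were in 5 windows (7.1%, against 3.89% of all windows), and the YY1 letters AAGATGGCG, on either strand, in 7 of the 70 windows, against 461 of all 32851 (1.4%). TATAAA, on either strand, was in 8 windows (11.4%, against 13.62%). These matches describe the letters and say nothing on binding. To show what such a window looks like, the stretches around the NRF1 letters are printed for a complex I and a complex IV gene, without any annotated exon. The Ndufa11 stretch is chr17:56717686-56717761 on the plus strand, where the window overlaps Vmac, and its NRF1 letters begin 59 bases before the start. The Cox6a1 stretch is chr5:115348982-115349129 on the minus strand, where the window overlaps Gm42903, and its NRF1 letters begin 161 bases before the start. Capitals mark the NRF1 letters.
Ndufa11: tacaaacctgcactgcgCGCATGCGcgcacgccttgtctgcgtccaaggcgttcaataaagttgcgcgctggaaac
Cox6a1: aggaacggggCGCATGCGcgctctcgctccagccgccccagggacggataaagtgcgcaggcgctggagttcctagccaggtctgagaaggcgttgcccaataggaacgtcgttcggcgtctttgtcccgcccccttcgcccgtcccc

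Of the 94 members, 88 averaged 1 FPKM or more and entered the comparison of knockout with wild type, among 10405 genes tested in all. None of the 88 was called at an adjusted p under 0.05 (limma on log2(FPKM + 1), two-sided), 0 higher and 0 lower, where 287 of all tested genes were called (2.76%), 115 of them higher (1.11%) and 172 lower (1.65%). Only mt-Cytb, lower in knockout, had an unadjusted p under 0.05, 1 of the 88, against 18.7% of all tested genes in either direction. The 75 tested nuclear members had a median log2 change of -0.09, with 27 positive and 48 negative values from -0.39 (Atp5e) to 0.25 (Atp5g1). The 13 members of the mitochondrial genome had a median of -0.18, with 2 positive and 11 negative values. The median over all tested genes was -0.00. In whole tissue, fewer cells of a type and less RNA per cell cannot be told apart.

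**Figure D1:**
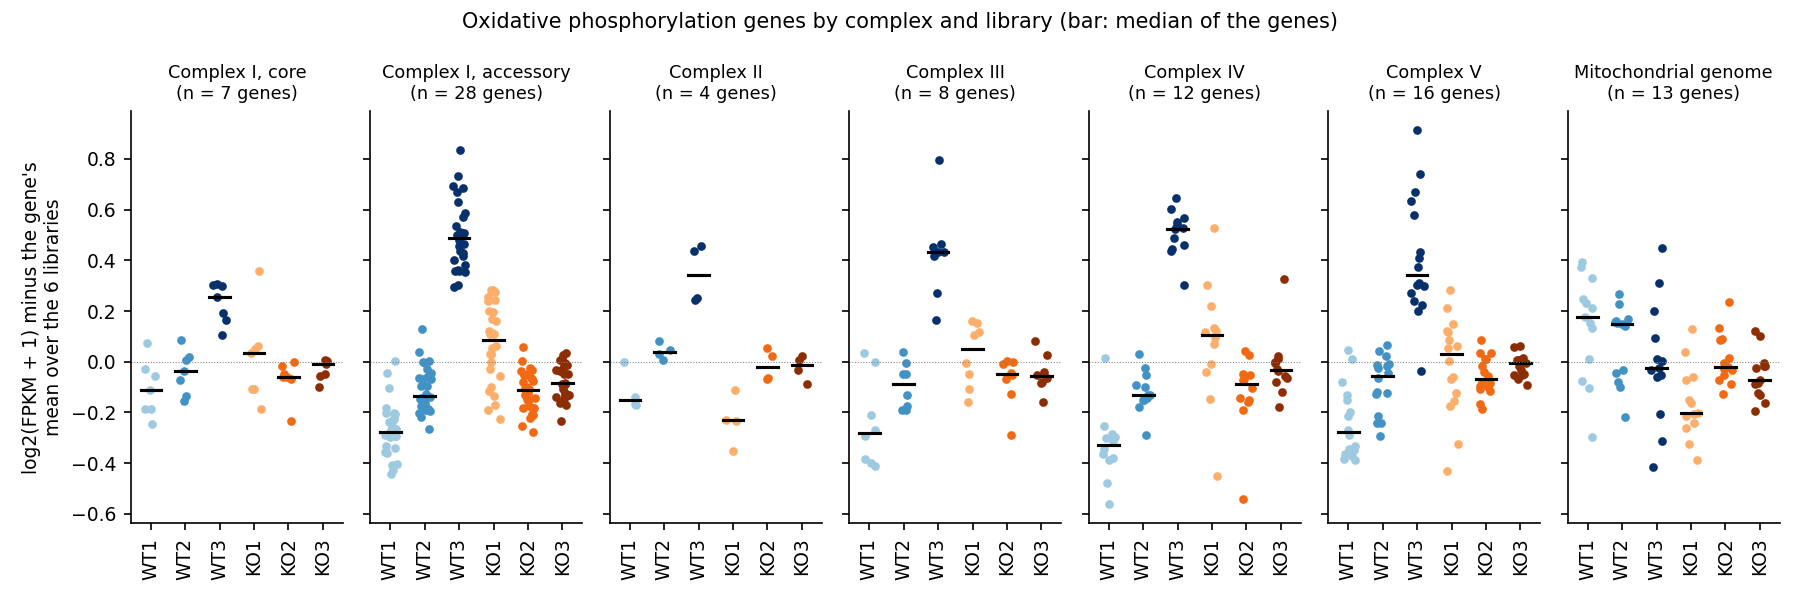
Each point is 1 tested member, placed by its log2(FPKM + 1) minus its mean over the 6 libraries (vertical axis), in 7 panels by complex and library, with a bar at the median of the genes. The median of wild type 3 is the highest in every nuclear panel and not in the panel of the mitochondrial genome.

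Members were also read by whether the 3 knockout libraries and the 3 wild type libraries overlapped. Among the nuclear members, 0 were higher and 4 were lower in every knockout library than in every wild type library, where 11.5% of all tested genes were higher and 1352 of the 10405 lower in this way. In the mitochondrial genome 1 of 13 was higher, mt-Nd1, and 5 of 13 were lower, mt-Atp6, mt-Atp8, mt-Cytb, mt-Nd5 and mt-Nd6. Without wild type 3 the counts were 25 higher and 4 lower among the nuclear members, against 22.7% and 19.8% of all tested genes, and 1 higher and 8 lower in the mitochondrial genome.

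The mitochondrial genome supplied the most abundant transcripts of the pathway. Its 13 members summed to 255617, 253514 and 250189 FPKM in wild type 1, 2 and 3 and to 214876, 242169 and 225706 FPKM in knockout 1, 2 and 3. The 3 knockout sums lay below the 3 wild type sums, with a ratio of the means of 0.899. mt-Atp8, the shortest member, held more of the sum than any other. Without mt-Atp8 the wild type sums were 161980, 158771 and 164645 FPKM, the knockout sums 138087, 157028 and 147796 FPKM, and the ratio 0.913. As a share of all FPKM, the mitochondrial members made up 30.3%, 28.1% and 23.2% in wild type and 23.8%, 27.2% and 26.1% in knockout, and these shares overlapped.

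**Figure D2:**
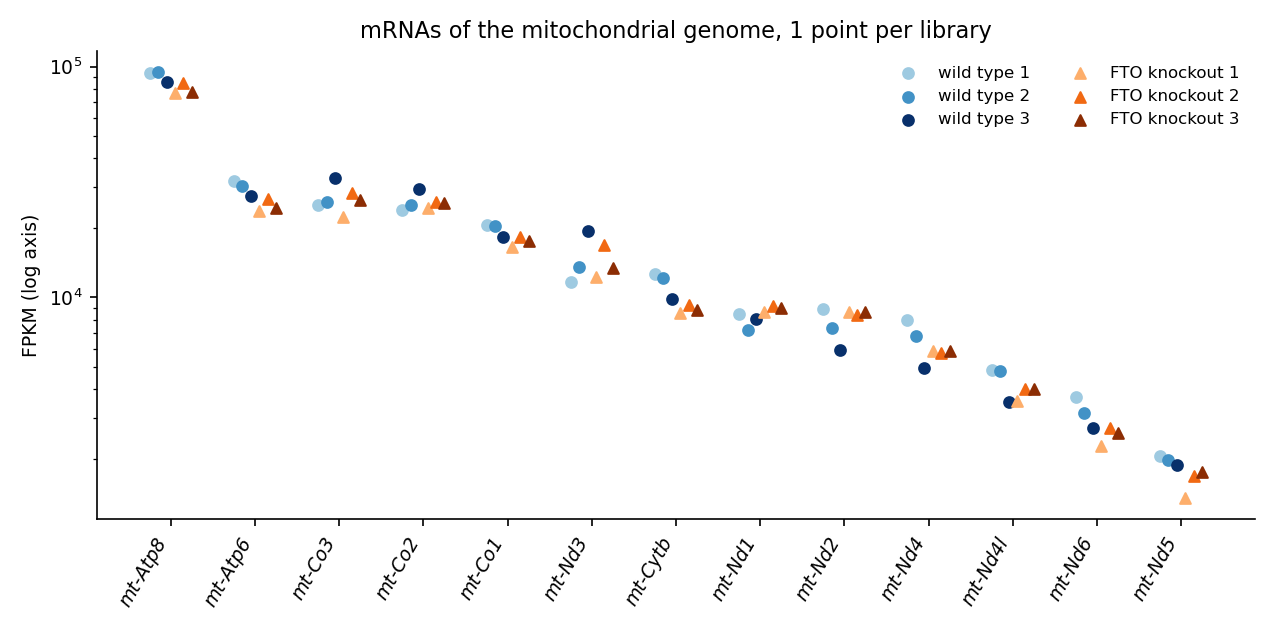
FPKM (vertical log axis) of the 13 members of the mitochondrial genome, 1 point per library, circles for wild type and triangles for knockout. mt-Atp8 is the highest and mt-Nd5 the lowest, and the groups do not overlap for mt-Atp6, mt-Atp8, mt-Cytb, mt-Nd1, mt-Nd5 and mt-Nd6.

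mt-Cytb encodes cytochrome b, the mitochondrial subunit of complex III, and lies at chrM:14145-15288. It stood at 12687, 12170 and 9873 FPKM in wild type and at 8546, 9252 and 8830 FPKM in knockout. Every knockout library was below every wild type library, and wild type 3 was the lowest of its group. The log2 change was -0.38 (SE 0.15), and its adjusted p by limma was 0.236. Without wild type 3 the log2 change was -0.49 with an adjusted p by limma of 0.0355, which made it the 1 member called among the 88, where 5.32% of all tested genes were called (2.31% lower). That call turned on the set of genes tested, since with the same 10405 genes the adjusted p without wild type 3 was 0.0558.

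The 7 complex I genes of the mitochondrial genome encode the membrane arm that pumps protons, and they did not share a direction. mt-Nd1, at chrM:2751-3707, stood at 8459, 7219 and 8052 FPKM in wild type and at 8638, 9225 and 9013 FPKM in knockout. All knockout libraries were above all wild type libraries, by a log2 change of 0.18 (SE 0.13, adjusted p by limma 0.524). mt-Nd2, at chrM:3914-4951, stood at 8939, 7396 and 5935 FPKM in wild type and at 8653, 8419 and 8614 FPKM in knockout. The knockout values lay close together inside the wild type range, with a log2 change of 0.23 (SE 0.17), and of 0.07 without wild type 3. mt-Nd5, at chrM:11742-13565, the longest of the 13, stood at 2047, 1983 and 1886 FPKM in wild type and at 1349, 1679 and 1745 FPKM in knockout. Its groups did not overlap, and its log2 change was -0.32 (SE 0.14, adjusted p by limma 0.297). mt-Nd6, at chrM:13552-14070, alone among the 13 lies on the minus strand. It stood at 3717, 3167 and 2726 FPKM in wild type and at 2261, 2725 and 2595 FPKM in knockout, so that its groups only just failed to overlap.

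The other complex I genes of the mitochondrial genome overlapped between groups. mt-Nd3 (chrM:9459-9806) ran from 11621 to 19474 FPKM in wild type, highest in wild type 3, and from 12308 to 16832 FPKM in knockout. mt-Nd4 (chrM:10167-11544) stood at 7952, 6835 and 4936 FPKM in wild type and at 5871, 5771 and 5838 FPKM in knockout, again with a narrow knockout range inside a wide wild type range. mt-Nd4l ran from 3538 to 4848 FPKM in wild type and from 3541 to 4012 FPKM in knockout. The 3 genes had log2 changes of -0.05, -0.15 and -0.18, and without wild type 3 of 0.17, -0.34 and -0.33.

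Complex IV, cytochrome c oxidase, takes its catalytic core from mt-Co1, mt-Co2 and mt-Co3. mt-Co1 (chrM:5328-6872) stood at 20591, 20417 and 18189 FPKM in wild type and at 16552, 18246 and 17485 FPKM in knockout. Knockout 2 was just above wild type 3, so the groups overlapped, and the log2 change was -0.18 (SE 0.14, adjusted p by limma 0.546). mt-Co2 (chrM:7013-7696) ran from 23892 to 29480 FPKM in wild type and from 24435 to 25905 FPKM in knockout. mt-Co3 (chrM:8607-9390) ran from 25242 to 33078 FPKM in wild type and from 22244 to 28296 FPKM in knockout. For both, wild type 3 was the highest of the 6 libraries, and the log2 changes were -0.04 and -0.13, and 0.05 and -0.0025 without it.

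Complex V, ATP synthase, has its proton channel subunit from mt-Atp6 and a small stator subunit from mt-Atp8. mt-Atp6 (chrM:7927-8607) stood at 31987, 30334 and 27479 FPKM in wild type and at 23690, 26686 and 24326 FPKM in knockout. mt-Atp8 stood at 93636, 94743 and 85544 FPKM in wild type and at 76789, 85141 and 77911 FPKM in knockout. Neither gene overlapped between groups, and their log2 changes were -0.26 (SE 0.14, adjusted p by limma 0.377) and -0.19 (SE 0.14, adjusted p by limma 0.531). The 2 genes share the 43 bases printed above and are not independent readings.

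The heavy strand of the mitochondrial genome is transcribed into a long precursor that is cut, mostly at tRNAs, into the messages, and 12 of the 13 members lie on it. From mt-Nd1 at the front to mt-Cytb at the end, the log2 change was 0.18, 0.23, -0.18, -0.04, -0.19, -0.26, -0.13, -0.05, -0.18, -0.15, -0.32 and -0.38. The values are positive at the first 2 genes and most negative at the last 2. Across the 12 genes Pearson's r with the order was -0.76 and Spearman's rho -0.65, while r with transcript length was -0.04. Set against the wild type mean, the single knockout libraries gave r with the order of -0.78, -0.71 and -0.71 in knockout 1, 2 and 3. Wild type 1, 2 and 3 gave -0.007, 0.38 and -0.16 against the mean that they are part of. Against the mean of wild type 1 and 2 alone, the knockout mean gave -0.66 and wild type 3 gave -0.15. In that setting the knockout log2 ratios were 0.19 for mt-Nd1, 0.07 for mt-Nd2 and 0.18 for mt-Nd3. They were 0.05 for mt-Co2 and 0.0046 for mt-Co3, and negative for the rest, lowest for mt-Cytb (-0.49). These values describe 12 genes that share libraries, a precursor and the same wild type mean, and the order was looked at after the values were seen.

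**Figure D3:**
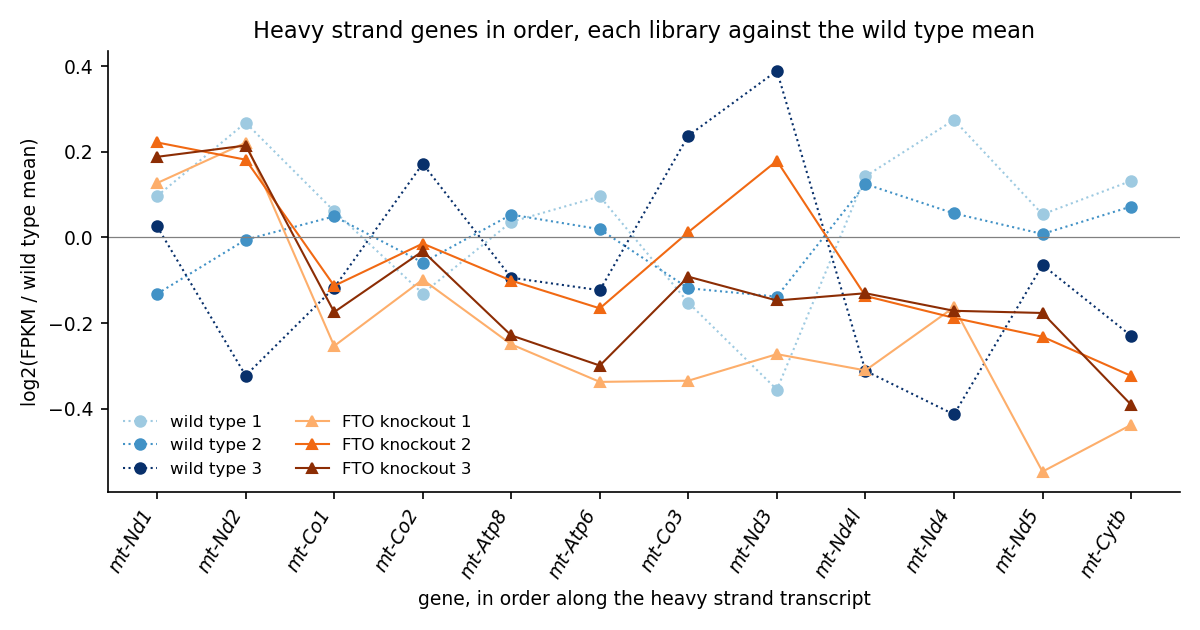
The 12 heavy strand genes in order along the transcript (horizontal axis), each library's FPKM over the wild type mean on a log2 scale (vertical axis), dotted lines for wild type and solid lines for knockout. The 3 knockout lines start above 0 at mt-Nd1 and mt-Nd2 and end below 0 at mt-Nd5 and mt-Cytb, while the wild type lines are set against their own mean and so lie around 0.

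The ratio of the last gene to the first restates the ends of this order within each library, free of scaling between libraries. It uses values of the series above, so it adds no independent support. mt-Cytb over mt-Nd1 was 1.5, 1.69 and 1.23 in wild type 1, 2 and 3 and 0.989, 1.003 and 0.980 in knockout 1, 2 and 3. The knockout ratios lay within a narrow range below all wild type ratios, with wild type 3 the nearest to them. This pair was chosen after its values were seen and was not tested.

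The nuclear members differed more between wild type 3 and the other libraries than between the groups. The summed FPKM of the 75 tested was 22109, 25043 and 36854 in wild type 1, 2 and 3 and 28159, 25256 and 25799 in knockout 1, 2 and 3. Wild type 3 was the highest of the 6 libraries for 72 of the 75 tested nuclear members, where it was the highest for 28.8% of all tested genes, and for 3 of the 13 in the mitochondrial genome. The 3 nuclear exceptions, named after their values were seen, were Ndufs7, Atp5b and Atp5d. The median ratio of wild type 3 to the mean of wild type 1 and 2 was 1.57 for the nuclear members (0.967 to 2.16), 0.887 for the mitochondrial members and 1.04 for all tested genes. The knockout mean lay above wild type 1 and 2 and below wild type 3 for 44 of the 75, and knockout 1 was the highest knockout library for 51.

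Leaving out wild type 3 turned the nuclear median from -0.09 to 0.15, with 58 of 75 values positive. Then an unadjusted p under 0.05 was met by 15 nuclear members higher and 0 lower, where 12.9% of all tested genes were higher, and 0 were called by limma, where 3.01% of all tested genes were called higher. The smallest adjusted p by limma was 0.0686, for Atp5g1 (log2 change 0.47). The mitochondrial median moved from -0.18 to -0.24 without wild type 3, and 8 of the 13 were lower at an unadjusted p under 0.05, where 10.2% of all tested genes were lower. The sign of the nuclear median thus rested on wild type 3, and that of the mitochondrial median did not.

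Transcript length moved with the level in wild type 3. Across the 75 nuclear members, the ratio of wild type 3 to the mean of wild type 1 and 2 had a Pearson's r of -0.74 and a Spearman's rho of -0.72 with log10 transcript length. The 36 members under 700 bases had a median ratio of 1.68, where 548 other tested genes of that length had 1.45. The 13 members from 1500 up to 3000 bases had 1.20, where 3801 other genes had 1.05. Over 10292 tested genes above 0 in these libraries r was -0.43 and rho -0.49. The knockout mean over the same pair of wild type libraries had r -0.56 and rho -0.51 with length across the 75 members, and it shares that denominator.

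**Figure D4:**
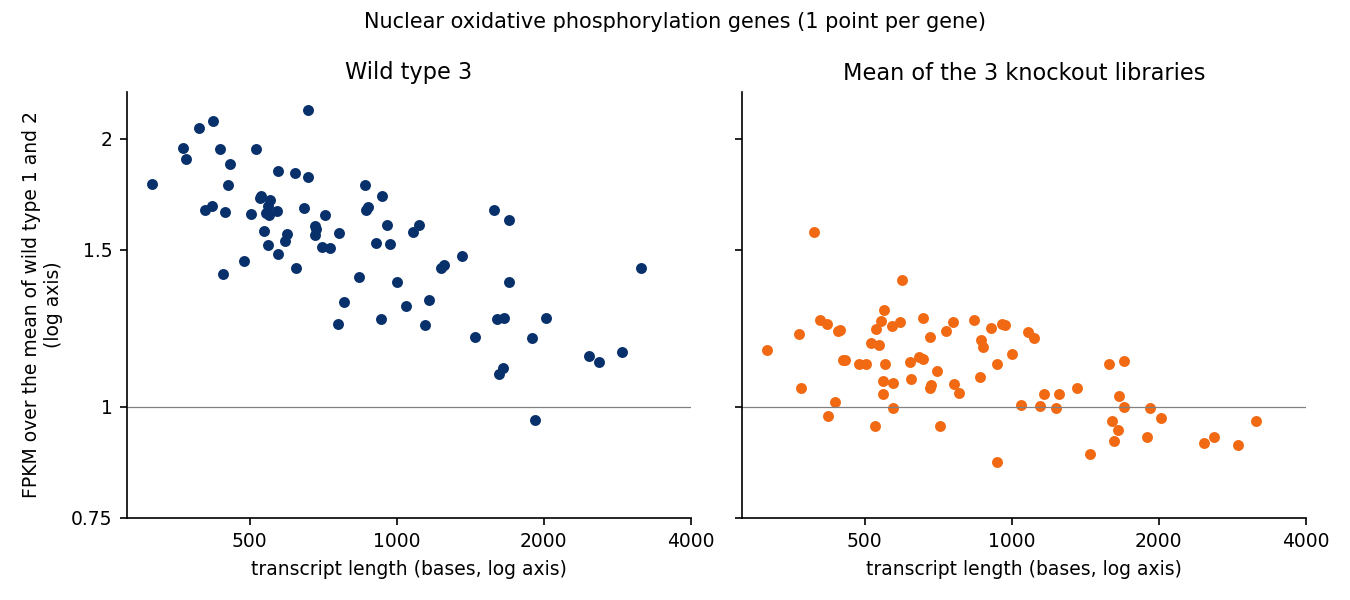
FPKM over the mean of wild type 1 and 2 (vertical log axis) against transcript length in bases (horizontal log axis) for the nuclear members, 1 point per gene, wild type 3 on the left and the knockout mean on the right. Short transcripts lie highest in both panels, and wild type 3 spans 0.967 to 2.16.

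With a smooth trend on length removed from each library, the median log2 level of the nuclear members was 7.84, 7.93 and 8.14 in wild type and 7.995, 7.86 and 7.82 in knockout. Before removal it was 7.67, 7.80 and 8.37 in wild type and 8.05, 7.84 and 7.86 in knockout. Wild type 3 stayed the highest library, by a smaller margin. The median of the mitochondrial members was 13.5, 13.57 and 13.27 in wild type and 13.08, 13.18 and 13.14 in knockout before removal, without overlap. After removal it was 13.78, 13.61 and 13.07 in wild type and 13.08, 13.19 and 13.1 in knockout, and the groups overlapped. Sums of markers of some other cell types also ran high in wild type 3. The erythroid genes summed to 406, 659 and 875 FPKM in wild type and 316 to 457 FPKM in knockout, and 5 of 5 were above 1 FPKM. Alas2 was highest in wild type 2, at 70.5 FPKM against 62.4 FPKM in wild type 3, and the other listed erythroid genes were highest in wild type 3. The adipocyte genes summed to 13.4, 19.1 and 39.95 FPKM in wild type and 10.8 to 13.7 FPKM in knockout, and Fabp4 made up nearly all of it, at 13.3, 18.8 and 39.93 FPKM in wild type. The defining markers Adipoq, Lep and Plin1 were at or near 0 in every library, with Lep and Plin1 listed at 0 in wild type 3. Endothelial genes summed to 37.2 to 78.6 FPKM in wild type and 48.4 to 62.6 FPKM in knockout, stellate cell genes to 65.0 to 93.7 and 59.9 to 88.9 FPKM, and cholangiocyte genes to 17.9 to 34.3 and 24.7 to 28.7 FPKM, each highest in wild type 3. Dcn held most of the stellate sum in wild type 3 (80.7 FPKM) and Spp1 most of the cholangiocyte sum (32.6 FPKM). Lrat, Reln, Des, Col1a1, Sox9, Krt19 and Krt7 were not highest in wild type 3. Kupffer cell genes summed to 37.4 to 129 FPKM in wild type and 108 to 194 FPKM in knockout. Their part in the level of the nuclear members was not tested.

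The balance of the genomes differed with the same library. The mitochondrial sum was 11.6, 10.1 and 6.79 times the nuclear sum in wild type 1, 2 and 3 and 7.63, 9.59 and 8.75 times in knockout 1, 2 and 3. The knockout ratios lay between those of wild type 3 and the other wild type libraries, so the groups overlapped. Against wild type 1 and 2 alone, every knockout library was lower.

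Complex I receives electrons from NADH, and its 7 core members in the nucleus carry the flavin and iron-sulphur centres. They summed to 780, 799 and 978 FPKM in wild type and to 844, 777 and 813 FPKM in knockout. Ndufs1 (chr1:63143596-63176833), the largest subunit and the one with the smallest p of the group, stood at 41.2, 44.7 and 48.2 FPKM in wild type and at 36.8, 41.5 and 40.6 FPKM in knockout. Its groups overlapped, and its log2 change was -0.17 (SE 0.11, adjusted p by limma 0.493).

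The accessory subunits of complex I surround that core, and 28 of them are members here. The 28 summed to 4772, 5343 and 8334 FPKM in wild type and to 6335, 5396 and 5551 FPKM in knockout. Wild type 3 was the highest library for all 28. Ndufa9 (chr6:126821721-126849136), which sits at the junction of the complex's arms, stood at 96.4, 109 and 123 FPKM in wild type and at 86.8, 92.0 and 93.4 FPKM in knockout. Its groups did not overlap, and its log2 change of -0.26 (SE 0.13) had the smallest adjusted p of the nuclear members by limma, 0.331. Ndufa3, the most abundant of the 28, stood at 455, 500 and 931 FPKM in wild type and at 696, 484 and 512 FPKM in knockout, so wild type 3 and knockout 1 stood above the other 4. Ndufb4 stood at 97.0, 121 and 166 FPKM in wild type and at 157, 124 and 122 FPKM in knockout. Without wild type 3, 9 of the 28 were higher in every knockout library than in wild type 1 and 2, and 1 was lower, against 22.7% and 19.8% of all tested genes.

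Complex II, succinate dehydrogenase, joins the citric acid cycle to the chain. Its 4 genes summed to 694, 778 and 966 FPKM in wild type and to 652, 752 and 741 FPKM in knockout, and the 4 log2 changes ran from -0.22 to -0.10. When wild type 3 was left out they were -0.15 for Sdha, 0.0053 for Sdhb, -0.05 for Sdhc and -0.0076 for Sdhd. Sdha, the flavin subunit, stood at 144, 153 and 171 FPKM in wild type and at 113, 146 and 145 FPKM in knockout. Sdhb, the iron-sulphur subunit and the most abundant, stood at 224, 251 and 293 FPKM in wild type and at 228, 256 and 232 FPKM in knockout. Both overlapped between groups (adjusted p by limma 0.479 for Sdha and 0.776 for Sdhb).

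Complex III passes electrons from coenzyme Q to cytochrome c. Its 8 nuclear members summed to 3306, 3718 and 5617 FPKM in wild type and to 4392, 3986 and 3984 FPKM in knockout. Uqcrc2 (chr7:120635176-120659524), a core protein, stood at 302, 293 and 356 FPKM in wild type and at 273, 270 and 281 FPKM in knockout. The groups did not overlap, and the log2 change was -0.20 (SE 0.12, adjusted p by limma 0.449). Its partner Uqcrc1, named after its values were seen, stood at 128, 132 and 144 FPKM in wild type and at 124, 123 and 121 FPKM in knockout, also without overlap. The small subunit Uqcrq was the most abundant of the 8, at 1082, 1237 and 1929 FPKM in wild type and at 1575, 1414 and 1371 FPKM in knockout. Without wild type 3, 4 of the 8 were higher in every knockout library than in wild type 1 and 2 and 2 were lower, against 22.7% and 19.8% of all tested genes. The 2 lower were the core proteins, and Uqcr10 and Uqcrfs1 overlapped.

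The nuclear subunits of complex IV surround its mitochondrial core, and several come as isoforms of different tissues. Of the 18 genes placed there, 12 were tested, Ndufa4 and Ndufa4l2 among them. The 12 summed to 6339, 7578 and 11289 FPKM in wild type and to 8803, 7520 and 7645 FPKM in knockout. The most abundant of the 12 was Cox7b, at 1305, 1745 and 2105 FPKM in wild type and at 2103, 1625 and 1508 FPKM in knockout. The groups overlapped for all 12 tested, where 24.5% of all tested genes did not overlap in either direction, and wild type 3 was the highest library for all 12. Ndufa4l2 had the smallest p, at 1.23, 1.13 and 2.04 FPKM in wild type and at 0.616, 1.25 and 1.20 FPKM in knockout (log2 change -0.28, adjusted p by limma 0.470), and this is close to the low end of what was tested.

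The isoforms known from muscle, heart or testis were low or listed at 0. Cox6a1 ran from 542 to 874 FPKM in wild type and from 566 to 700 FPKM in knockout, while its heart and muscle counterpart Cox6a2 was listed at 0 in 5 libraries and at 0.147 FPKM in knockout 3. Cox6b1 ran from 600.0 to 1169 FPKM in wild type and from 672 to 742 FPKM in knockout, while Cox6b2, known from testis, reached at most 0.731 FPKM. Cox8a ran from 387 to 698 FPKM in wild type and from 422 to 496 FPKM in knockout. Cox8b reached at most 1.98 FPKM, and Cox4i2, the isoform known for oxygen-poor conditions, at most 0.207 FPKM. Cox7b2 and Cox8c were listed at 0 in all 6 libraries. These 6 genes were under the filter and untested. Cox7a1, the heart and muscle isoform of subunit 7a, made up 3.03% to 5.79% of the summed FPKM of Cox7a1 and Cox7a2 in any library, and Ndufa4l2 at most 0.129% of Ndufa4 and Ndufa4l2.

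Complex V had its 16 nuclear members at 6217, 6827 and 9671 FPKM in wild type and at 7134, 6825 and 7065 FPKM in knockout. Atp5b, the catalytic beta subunit and the most abundant, stood at 1313, 1250 and 1239 FPKM in wild type and at 1380, 1198 and 1255 FPKM in knockout. It was the tested nuclear member with the lowest ratio of wild type 3 to wild type 1 and 2, 0.967, and its log2 change was 0.01 (SE 0.12). Atp5a1, the alpha subunit that alternates with beta in the catalytic ring, stood at 325, 337 and 377 FPKM in wild type and at 286, 310 and 308 FPKM in knockout. The groups did not overlap, and the log2 change was -0.20 (SE 0.12, adjusted p by limma 0.434).

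The c subunit, which forms the rotating ring in the membrane, is encoded by 3 genes whose mature proteins are the same and whose import sequences differ. Atp5g1 (chr11:96068852-96075670) stood at 231, 247 and 374 FPKM in wild type and at 369, 311 and 316 FPKM in knockout. Atp5g2 (chr15:102662864-102672352) stood at 173, 201 and 264 FPKM in wild type and at 232, 232 and 219 FPKM in knockout. Atp5g3 (chr2:73908447-73911326) stood at 545, 601 and 941 FPKM in wild type and at 483, 558 and 593 FPKM in knockout. Each gene overlapped between groups, and none was called (log2 changes 0.25, 0.12 and -0.32, adjusted p by limma 0.550, 0.768 and 0.491). The log2 changes were 0.47, 0.29 and -0.08 without wild type 3.

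As shares of their summed FPKM the 3 genes separated the groups. Atp5g1 made up 24.4%, 23.6% and 23.7% in wild type and 34.1%, 28.3% and 28.0% in knockout. Atp5g2 made up 18.2%, 19.2% and 16.7% in wild type and 21.4%, 21.0% and 19.5% in knockout. Atp5g3 made up 57.4%, 57.3% and 59.6% in wild type and 44.6%, 50.7% and 52.5% in knockout. All 3 shares lay apart between groups, with more of Atp5g1 and Atp5g2 and less of Atp5g3 in knockout. Knockout 1 was the farthest from the wild type libraries for all 3. By level, 24.5% of all tested genes did not overlap between groups in either direction, and shares were not computed for all genes. The shares within Cox7a1 and Cox7a2 and within Ndufa4 and Ndufa4l2 overlapped between groups. The 3 shares add to the whole, so they are not independent, and with 3 libraries against 3 an exact permutation test could not go below p = 0.1.

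**Figure D5:**
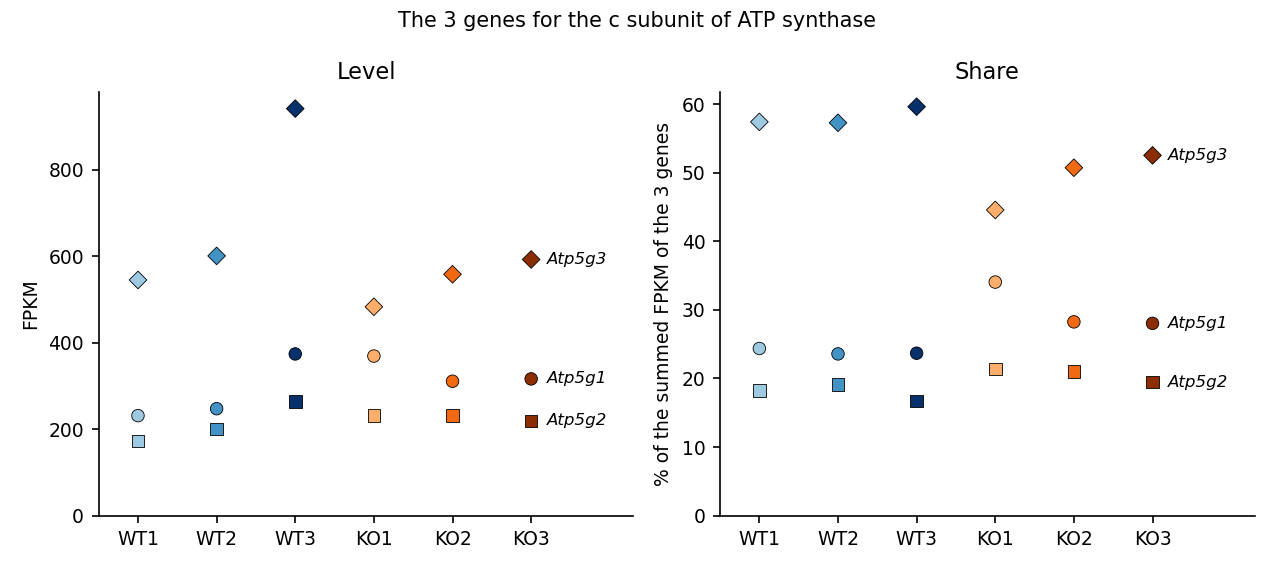
FPKM (left) and percent of the summed FPKM (right) of the 3 genes for the c subunit of ATP synthase, 1 point per library and gene. On the left wild type 3 is the highest for all 3 genes, and on the right the Atp5g1 share is 23.6% to 24.4% in wild type and 28.0% to 34.1% in knockout.

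Genes that build or serve the chain gave 1 call. Their counts in the lists that follow stand beside 2.76% of all tested genes called, and beside 900 higher and 1043 lower of the 10405 at an unadjusted p under 0.05. Of 56 tested assembly factors, 1 was called, Sco2, a copper chaperone of complex IV, which stood at 72.9, 65.4 and 48.4 FPKM in wild type and at 31.3, 34.8 and 34.9 FPKM in knockout. It fell by 0.85 on the log2 scale (SE 0.16, adjusted p by limma 0.0399). That call held without wild type 3 (adjusted p by limma 0.00657) and was lost when any of the other 5 libraries was left out (0.0781 to 0.156), with quantile normalization (0.0650), with scaling to the sum outside the mitochondrial genome (0.121), with the length trend removed (0.0715) and with no filter on low values (0.0807). The Sco2 span also overlaps the neighbouring genes Tymp and Ncaph2. The median log2 change of the 56 was -0.06, with 21 positive and 35 negative values, and without wild type 3 it was 0.06 with 36 positive. Of 36 genes for mitochondrial DNA maintenance, transcription and RNA handling, limma called 0 (unadjusted p under 0.05 for 2 higher and 1 lower). Hsd17b10, a subunit of the enzyme that cuts the 5′ ends of mitochondrial tRNAs, stood at 248, 257 and 305 FPKM in wild type and at 175, 182 and 170 FPKM in knockout (log2 change -0.61, adjusted p by limma 0.0511). It was called under 6 alternatives: without wild type 3 (adjusted p by limma 0.0302), with the length trend removed (0.0112), with quantile normalization (0.0222), with median ratio size factors (0.0425), with scaling to the sum outside the mitochondrial genome (0.0390) and with no intensity trend (0.0393). Lrpprc, which stabilises mitochondrial messages, stood at 22.8, 20.3 and 17.9 FPKM in wild type and at 26.4, 25.04 and 27.2 FPKM in knockout (log2 change 0.36, adjusted p by limma 0.168). Neither gene overlapped between groups.

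Of 13 tested regulators of mitochondrial biogenesis, limma called 0 (unadjusted p under 0.05 for 1 higher and 1 lower). Nrf1, the factor whose letters were sought above, stood at 2.83, 2.35 and 2.004 FPKM in wild type and at 4.47, 3.68 and 4.07 FPKM in knockout, without overlap (log2 change 0.58, adjusted p by limma 0.0561). Nfe2l2, the regulator of the antioxidant response, stood at 38.7, 49.6 and 46.6 FPKM in wild type and at 37.99, 31.5 and 27.9 FPKM in knockout (adjusted p by limma 0.164).

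None of the listed genes that feed electrons into the chain was called. Of 14 tested genes for mobile carriers and coenzyme Q synthesis, limma called 0 (unadjusted p under 0.05 for 0 higher and 3 lower), with a median log2 change of -0.09. The median was 0.0064 without wild type 3, with 7 of the 14 positive. Coq8a, a kinase-like protein of coenzyme Q synthesis, stood at 125, 172 and 143 FPKM in wild type and at 47.3, 99.6 and 81.8 FPKM in knockout (log2 change -0.99, adjusted p by limma 0.105). Pdss2, which makes the side chain of coenzyme Q, stood at 7.19, 7.21 and 6.95 FPKM in wild type and at 4.82, 5.50 and 5.06 FPKM in knockout (log2 change -0.41, adjusted p by limma 0.0741). Both lay lower in every knockout library.

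The 8 tested genes of other routes to coenzyme Q, the electron transfer flavoprotein subunits Etfa and Etfb among them, had negative log2 changes, with a median of -0.18 (-0.23 and 1 of 8 positive without wild type 3), and limma called 0 (unadjusted p under 0.05 for 1 lower). Etfdh, which brings in electrons from fatty acid oxidation, stood at 167, 158 and 177 FPKM in wild type and at 115, 108 and 138 FPKM in knockout (log2 change -0.48, adjusted p by limma 0.110, and 0.0403 with the length trend removed). Prodh, proline dehydrogenase, stood at 71.4, 87.3 and 99.9 FPKM in wild type and at 53.5, 82.8 and 54.3 FPKM in knockout, with overlap.

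Of 21 tested genes of the citric acid cycle and pyruvate dehydrogenase, 18 had negative log2 changes, with a median of -0.22 (-0.12 and 5 of 21 positive without wild type 3), and limma called 0 (unadjusted p under 0.05 for 1 higher and 6 lower). Cs, citrate synthase, stood at 38.3, 37.3 and 44.5 FPKM in wild type and at 28.8, 27.6 and 29.2 FPKM in knockout (log2 change -0.47, adjusted p by limma 0.0770). Pdha1, a subunit of pyruvate dehydrogenase, stood at 53.1, 51.0 and 61.2 FPKM in wild type and at 37.0, 40.3 and 41.2 FPKM in knockout (log2 change -0.47, adjusted p by limma 0.0883). Both lay lower in every knockout library, and both were called with the length trend removed (adjusted p by limma 0.0425 for Cs and 0.0409 for Pdha1) and with quantile normalization (0.0410 and 0.0480). Of the 4 tested carriers and uncoupling proteins, limma called 0 (unadjusted p under 0.05 for 0). Slc25a5, which trades ATP for ADP across the inner membrane, stood at 355, 401 and 504 FPKM in wild type and at 354, 346 and 348 FPKM in knockout, and its relative Slc25a4 ran from 1.71 to 3.38 FPKM over the 6 libraries.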

How the data were processed

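Per the labels' protocols, hepatic total RNA was extracted in Trizol, cleared of DNA, cleaned on columns and sequenced on Illumina libraries. The authors deposited 1 table of FPKM values per gene. That unit is inferred, from the size of the column sums and from Cufflinks being named. The submitters' processing notes name TopHat2 2.1.0, HTSeq, Cufflinks 2.2.1 and mm10 without giving their roles, and the annotation release and the use of strand are not given in the sources used here. FPKM depends on a transcript length, so overlapping genes (31 members overlap another protein-coding gene) and near-identical copies have uncertain values.

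GENCODE M21, on GRCm38 (the mm10 assembly), gave symbols, coordinates and transcript lengths. It named 24807 of 25690 rows, and 46 rows with a repeated identifier were left unnamed. Groups came from the genotype labels. Genes averaging 1 FPKM or more were compared on the log2(FPKM + 1) scale by limma 3.58.1 under R 4.3.3, with lmFit, trended eBayes and two-sided tests. A call needed an adjusted p (Benjamini-Hochberg) under 0.05. The script was tested on simulated data. This scale understates the change of low genes. Without wild type 3 the filter was applied to the remaining libraries. Depth was estimated from low FPKM values of 964 genes with 1 transcript. Only values implying a depth inside a range set beforehand were used, so the estimate was held to that range. Of the values worth a few fragments, 75.0% to 82.2% per library lay within 0.15 of a whole number of fragments. Those values include the ones that set the depth, and counts were not recovered for the table. Values at 0 can be failed estimates.

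The members and lists were chosen with earlier results of these data known, so no count of them is independent support. Named genes are all members of the mitochondrial genome, the nuclear member with the smallest p and the most abundant one per complex, isoforms and paralogs (with Ndufb4, which the rule names), and up to 2 genes per list by smallest p. The values of 1 gene that this rule names are not reported here. Promoter windows came from RefSeq. Alternatives tried were median ratio size factors, quantile normalization, scaling to the sum outside the mitochondrial genome, removal of a lowess trend on length (span 0.3), robust and untrended empirical Bayes, no filter, a mean of at least 5 FPKM, a pseudocount of 0.1 and leaving out each library.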

Additional observations from a re-analysis of the deposited data

How the results depend on the processing

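No paired analysis was possible because the labels give the libraries no replicate numbers that the groups share. No nuclear member was called under any of the 15 alternatives, and the smallest adjusted p by limma ran from 0.0683 to 0.539. The count of mitochondrial members called was 0 to 1 when each library was left out, the 1 being mt-Cytb without wild type 3, and 0 under the other alternatives. The median log2 change of the mitochondrial members was negative throughout, from -0.24 to -0.14 with a library left out and from -0.18 to -0.07 otherwise. That of the nuclear members ran from -0.19 to 0.15 with a library left out, positive without wild type 3 alone, and from -0.12 to -0.04 otherwise. Of all tested genes 287 were called, against 542 with the length trend removed, 180 with no filter, 165 at a mean of at least 5 FPKM and 92 to 552 when each library was left out (92 without knockout 3, 115 without wild type 2, 129 without knockout 1 and 552 without wild type 3). Scaling to the sum outside the mitochondrial genome gave 148 higher and 142 lower, against 115 and 172.

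Some small log2 changes turned in sign. Quantile normalization gave 0.025 for Ndufa4, 0.12 for mt-Co2 and 0.092 for mt-Nd3, scaling to the sum outside the mitochondrial genome gave 0.0057 for mt-Co2 and 0.0026 for mt-Nd3, and removing the length trend gave -0.00998 for Cox7a2 and -0.026 for Uqcrq. With a library left out, the ranges that crossed 0 were -0.048 to 0.055 for Atp5b, -0.017 to 0.29 for Atp5g2, -0.26 to 0.087 for Cox6a1, -0.31 to 0.17 for Cox6b1, -0.020 to 0.53 for Cox7a1, -0.17 to 0.34 for Cox7a2, -0.15 to 0.19 for Cox7b, -0.27 to 0.16 for Cox8a, -0.29 to 0.22 for Ndufa3, -0.31 to 0.18 for Ndufa4, -0.082 to 0.30 for Ndufb4, -0.19 to 0.0053 for Sdhb, -0.091 to 0.33 for Uqcrq, -0.10 to 0.047 for mt-Co2, -0.21 to 0.17 for mt-Nd3 and -0.34 to 0.0046 for mt-Nd4. For Slc25a4 the range was -0.11 to 0.24. Fto and Sco2 kept their direction wherever tested. Fto lost its call under 6 of the alternatives and was not tested at a mean of at least 5 FPKM, and Sco2 lost its call under 9. Sets of 3 libraries and an unknown assignment of shared fragments limit these values, and the cause of each move was not tested.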
